A study of Mus musculus with 6 samples.

Results

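The genes described here were 10 mouse genes of the chromosome axis, the synaptonemal complex and meiotic recombination, namely Sycp1, Sycp2, Sycp3, Syce2, Smc1b, Hormad1, Dmc1, Spo11, Msh4 and Msh5. They were chosen by name, and every non-control probe whose RefSeq accession maps to one of them was taken, which gave 15 of the 23374 probes matched to a gene and 10 of the 16535 genes that these probes represent. Expression had been measured on one-colour Agilent whole mouse genome arrays with total RNA of male gonads at the embryonic stage E14.5, with 2 arrays for each of 3 genotypes. All embryos were of a mixed ICR and N2 background. Nanos2+/- gonads, with 1 intact allele of the male germ cell RNA-binding protein NANOS2, were the reference, Nanos2-/- gonads had none, and Nanos2-/-_Tg+ gonads lacked the intact gene but carried a transgene for 3×FLAG-tagged Nanos2-ΔN10, a NANOS2 without its first 10 residues. The transgene was driven by the Nanos2 enhancer and came from 1 line, and the methods describe the arrays of a genotype as independent datasets without saying which embryos were pooled, so that the p-values measure the spread between these arrays. The comparisons ask how far the RNA of these meiotic genes differed between whole gonads with and without NANOS2. They also ask whether it differed between Nanos2-/- gonads with and without the truncated protein.

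In meiotic prophase each chromosome folds into loops along a protein axis, built from meiosis-specific cohesin and from SYCP2, SYCP3 and HORMAD1. The SPO11 enzyme cuts the DNA, DMC1 drives the search for the homologous chromosome, SYCP1 and central element proteins such as SYCE2 zip the axes together, and MSH4 with MSH5 secures the intermediates that become crossovers. In the mouse, germ cells of the fetal ovary enter meiosis before birth, whereas those of the fetal testis do not, and NANOS2 is known as a factor that keeps male germ cells out of this programme.

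Promoter windows of RefSeq, on build GRCm38.p6, were available for 9 of the 10 genes. Each holds 300 bases, 250 before and 50 after an annotated transcription start, and 11 windows belong to these 9 genes. The windows of 4 genes are printed on the strand of the gene, from 5′ to 3′, because they pair the only gene whose arrays stood at least 2-fold above Nanos2+/- on average in both other genotypes (Sycp1) with an axis gene with a smaller difference (Sycp3), an axis gene whose mean in Nanos2-/-_Tg+ lay at that of Nanos2+/- (Hormad1) and a crossover gene whose window holds none of the motifs searched (Msh4). The Sycp1 window lies at chr3:102936051-102936350 on the minus strand, the Sycp3 window at chr10:88459337-88459636 on the plus strand, the Hormad1 window at chr3:95559427-95559726 on the plus strand and the Msh4 window at chr3:153904842-153905141 on the minus strand. Capitals mark matches, on either strand, to the E2F core TCCCGC, the E-box CACGTG and the STRA8 motif CNCCTCAG.
Sycp1: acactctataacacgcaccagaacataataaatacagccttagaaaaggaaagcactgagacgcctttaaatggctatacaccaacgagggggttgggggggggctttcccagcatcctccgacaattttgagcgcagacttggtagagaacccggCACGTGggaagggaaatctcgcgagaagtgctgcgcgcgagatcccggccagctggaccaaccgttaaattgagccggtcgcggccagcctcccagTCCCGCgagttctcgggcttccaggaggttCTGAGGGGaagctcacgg
Sycp3: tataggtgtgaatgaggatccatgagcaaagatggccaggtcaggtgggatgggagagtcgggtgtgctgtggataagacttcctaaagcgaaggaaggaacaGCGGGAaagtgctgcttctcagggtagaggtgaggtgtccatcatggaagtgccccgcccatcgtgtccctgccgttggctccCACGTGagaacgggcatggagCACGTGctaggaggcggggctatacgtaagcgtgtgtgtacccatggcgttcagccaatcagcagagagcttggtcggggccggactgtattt
Hormad1: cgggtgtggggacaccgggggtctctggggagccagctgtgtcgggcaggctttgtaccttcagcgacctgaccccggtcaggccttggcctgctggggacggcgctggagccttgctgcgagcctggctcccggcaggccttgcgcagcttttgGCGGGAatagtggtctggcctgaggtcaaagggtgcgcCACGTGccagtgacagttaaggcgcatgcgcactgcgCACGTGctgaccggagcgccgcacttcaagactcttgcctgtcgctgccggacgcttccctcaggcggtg
Msh4: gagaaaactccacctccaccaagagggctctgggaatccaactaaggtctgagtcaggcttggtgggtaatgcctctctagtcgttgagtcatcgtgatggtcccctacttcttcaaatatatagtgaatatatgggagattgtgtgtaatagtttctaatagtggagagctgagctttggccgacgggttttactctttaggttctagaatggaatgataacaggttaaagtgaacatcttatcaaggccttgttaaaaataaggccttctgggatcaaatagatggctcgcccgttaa

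In the Sycp1 window the E-box began at position -94 and the E2F core at position 3, counting the start as 1, and the STRA8 motif was read on the opposite strand from position 33. In the Sycp3 window the E-boxes began at -64 and -43 and the E2F core, on the opposite strand, at -147. The E2F core was found in 9 of the 11 windows, for 7 of the 9 genes (all except Sycp2 and Msh4), and in 6562 of all 32851 windows. The E-box was found in 5 of the 11 windows, for 4 genes (Sycp1, Sycp3, Hormad1 and Syce2), against 7.15% of all windows. The STRA8 motif was found in 3 of the 11, for 3 genes (Sycp1, Syce2 and Msh5), against 7.94%. The windows of Hormad1 overlap each other, as do those of Syce2. In the second Syce2 window the E2F core and the STRA8 motif share bases. The windows ranged in G+C from 43.3% for Msh4 to 69.3% for the second Syce2 window, with a median of 52.7% over all windows. The part of G+C content in the motif counts was not tested. These matches describe the letters of the windows, and binding was not measured.

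Signals were scaled to a common median per array and are given as log2 values, so that a difference of 1 is 2-fold. Levels of different probes are not set against each other, since probes differ in how brightly they label. All 15 probes passed the filter on dim probes, which asked for a clear signal on both arrays of some genotype, and were tested, and 14 of them were well above background on all 6 arrays. The exception was Dmc1, which was not well above background on Nanos2-/- replicate 2. As a check of the labels, the probe of Nanos2 itself was not well above background in Nanos2-/-, against 9.42 and 10.78 in Nanos2+/-, and reached 13.28 and 14.25 with the transgene. The slide and the reference genotype cannot be told apart, because slide 1 carried the Nanos2+/- pair and slide 2 all remaining arrays, so that only the comparison of Nanos2-/-_Tg+ with Nanos2-/- stayed within a slide. With 2 arrays against 2, the smallest two-sided p of an exact permutation test is 0.333.

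None of the 15 probes was called in any comparison, a call being a limma p below 0.05 after Benjamini-Hochberg adjustment over all probes tested together with at least a 2-fold change. Calls were also rare among all probes, at 0.0674% between Nanos2-/- and Nanos2+/-, 0.105% between Nanos2-/-_Tg+ and Nanos2+/-, and 0.0187% between Nanos2-/-_Tg+ and Nanos2-/-. Before adjustment, 2, 1 and 1 of the 15 probes had a limma p under 0.05 in these comparisons, where 9.08%, 11.6% and 2.74% of all probes did. By a t-test at p under 0.05 with the 2-fold limit, as named in the paper's results, 0, 0 and 0 of the 15 passed, against 0.573%, 0.876% and 0.15% of all probes. What follows is therefore a description of levels array by array, with the interval of each difference.

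**Figure D1:**
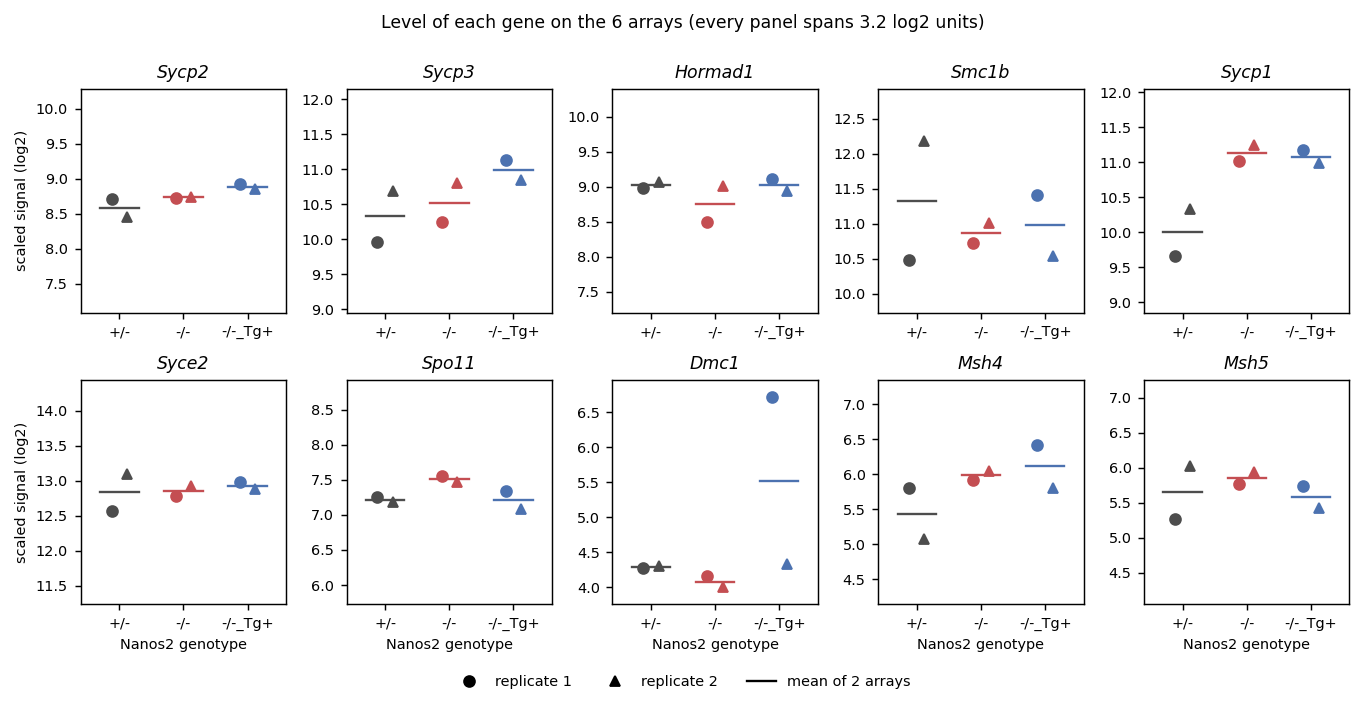
Scaled signal (log2) of the probe with the highest mean signal of each gene on the 6 arrays, grouped by Nanos2 genotype, with circles for replicate 1, triangles for replicate 2 and a line for the mean of the 2 arrays. Every panel spans the same number of log2 units around its own middle, and Sycp1 is the panel in which both Nanos2+/- arrays (9.66 and 10.33) lie well under the other 4 (10.98 to 11.24).

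The transverse filament gene Sycp1 had the largest mean difference of the 10 genes between Nanos2-/- and Nanos2+/-. It read 9.66 and 10.33 in Nanos2+/-, 11.01 and 11.24 in Nanos2-/-, and 11.17 and 10.98 in Nanos2-/-_Tg+. Both Nanos2+/- arrays were lower than each of the other 4 arrays, and the Nanos2-/- and Nanos2-/-_Tg+ arrays overlapped. The mean was 2.19-fold higher in Nanos2-/- than in Nanos2+/-, a log2 difference of 1.13 with a standard error of 0.255 and a 95% interval from 0.54 to 1.72. The limma p was 0.00252 before adjustment and 0.252 after. In Nanos2-/-_Tg+ the mean stood 1.08 above Nanos2+/- (SE 0.255, interval 0.49 to 1.67), with an unadjusted p of 0.00324 and an limma adjusted p of 0.18. Both comparisons share the Nanos2+/- arrays and so are not independent of each other. Between Nanos2-/-_Tg+ and Nanos2-/- the difference was -0.05, with an interval from -0.64 to 0.54 that leaves room for a difference of either sign.

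The central element gene Syce2, whose product joins the SYCP1 filaments along the middle of the complex, did not separate the genotypes. Its levels were 12.57 and 13.10 in Nanos2+/-, 12.78 and 12.92 in Nanos2-/-, and 12.98 and 12.88 in Nanos2-/-_Tg+. The 2 Nanos2+/- arrays lay on either side of the other 4. The differences were 0.01 for Nanos2-/- against Nanos2+/- (interval -0.51 to 0.53), 0.10 for Nanos2-/-_Tg+ against Nanos2+/- (interval -0.42 to 0.62) and 0.08 between Nanos2-/-_Tg+ and Nanos2-/- (interval -0.44 to 0.61).

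Sycp3 and Sycp2 encode the lateral element proteins of the axis, and Sycp3 had its highest mean in Nanos2-/-_Tg+. Sycp3 read 9.97 and 10.69 in Nanos2+/-, 10.25 and 10.80 in Nanos2-/-, and 11.14 and 10.85 in Nanos2-/-_Tg+. Both Nanos2-/-_Tg+ arrays lay above the other 4, while Nanos2+/- and Nanos2-/- overlapped. Sycp3 stood 0.67 above Nanos2+/- in Nanos2-/-_Tg+ (SE 0.3, interval -0.03 to 1.36, limma adjusted p = 0.453) and 0.20 above it in Nanos2-/- (interval -0.50 to 0.90). Nanos2-/-_Tg+ stood 0.47 above Nanos2-/- (interval -0.23 to 1.17). For the brightest of its 3 probes, Sycp2 read 8.71 and 8.45 in Nanos2+/-, 8.73 and 8.74 in Nanos2-/-, and 8.93 and 8.85 in Nanos2-/-_Tg+. These arrays fell into the order Nanos2+/-, Nanos2-/-, Nanos2-/-_Tg+ without overlap, but the steps were small, at 0.16 and 0.15, with standard errors of 0.187. The other Sycp2 probes did not keep this order, and their arrays overlapped in every comparison. One of them, A_51_P274409, was lowest in Nanos2-/-_Tg+, with a difference of -0.38 from Nanos2+/- (interval -1.23 to 0.46) where the brightest probe gave 0.31, and the mean of the 3 probes gave 0.02. It differed more between replicates than between genotypes, and replicate 1 was above replicate 2 in each genotype (6.61 and 6.04, 6.67 and 5.87, 6.31 and 5.56).

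Hormad1, which encodes a HORMA domain protein of unsynapsed axes, had its lowest level in 1 Nanos2-/- array on both of its probes. The brighter probe read 8.98 and 9.07 in Nanos2+/-, 8.49 and 9.01 in Nanos2-/-, and 9.11 and 8.94 in Nanos2-/-_Tg+. The dimmer probe read 6.25 and 6.82, 5.90 and 6.30, and 6.50 and 6.48 in the same order. On the brighter probe Nanos2-/- stood 0.28 under both other genotypes on average, with arrays that overlapped, and the interval of the difference between Nanos2-/-_Tg+ and Nanos2+/- ran from -0.52 to 0.52. Smc1b, which encodes a meiosis-specific cohesin subunit, had the widest spread between replicates of the axis genes. It read 10.48 and 12.18 in Nanos2+/-, 10.73 and 11.01 in Nanos2-/-, and 11.41 and 10.54 in Nanos2-/-_Tg+. The highest and the lowest of the 6 values were both Nanos2+/- arrays. The mean differences of -0.46, -0.35 and 0.11 had a standard error of 0.526, and the first of these intervals ran from -1.69 to 0.77.

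**Figure D2:**
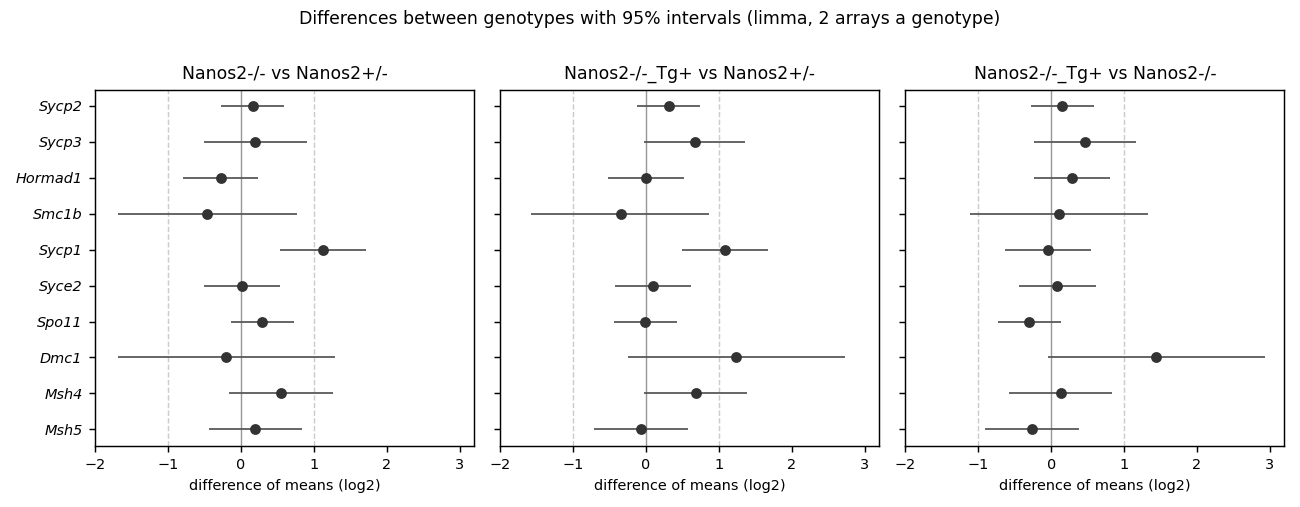
Difference of genotype means (log2) of each gene in the 3 comparisons, as points, with 95% intervals from limma as lines and dashed lines at a 2-fold difference. The intervals of Sycp1 against Nanos2+/- (0.54 to 1.72 and 0.49 to 1.67) lie above 0, and those of Dmc1 and Smc1b are the widest.

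Among the recombination genes, Spo11 read highest in Nanos2-/- on both of its probes. The brighter probe gave 7.26 and 7.18 in Nanos2+/-, 7.56 and 7.47 in Nanos2-/-, and 7.34 and 7.09 in Nanos2-/-_Tg+. The other probe gave 6.22 and 6.03, 6.54 and 6.71, and 6.08 and 6.23. On both probes the Nanos2-/- arrays lay above all 4 others, while Nanos2+/- and Nanos2-/-_Tg+ overlapped. The differences were small. Nanos2-/- stood 0.29 and 0.50 above Nanos2+/- on the 2 probes (unadjusted p of 0.159 and 0.0319, limma adjusted p of 0.722 and 0.491), and Nanos2-/-_Tg+ stood at -0.30 and -0.47 relative to Nanos2-/- (unadjusted p of 0.151 and 0.0406, limma adjusted p of 1 for both). Nanos2-/-_Tg+ and Nanos2+/- differed by -0.01 (interval -0.44 to 0.43) and 0.03 (interval -0.41 to 0.47).

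Dmc1, the meiosis-specific recombinase, was close to background on 5 arrays. Its scaled signal, before the log, was 19.2 and 19.7 in Nanos2+/-, 17.9 and 16.1 in Nanos2-/-, the second of these not well above background, and 105 and 20.1 in Nanos2-/-_Tg+. A single Nanos2-/-_Tg+ array, replicate 1, stood apart from the other 5, and its spot carried no outlier flag. The log2 differences of 1.24 from Nanos2+/- (interval -0.25 to 2.73, limma adjusted p = 0.516) and 1.44 from Nanos2-/- (interval -0.05 to 2.93, limma adjusted p = 1) thus rest on 1 array. Without the other Nanos2-/-_Tg+ array, replicate 2, the remaining one was called against both genotypes, at 2.43 (limma adjusted p = 0.0248) and 2.63 (limma adjusted p = 0.0312), in a fit in which it was assumed to vary like the other genotypes. Without replicate 1 the differences were 0.05 and 0.25.

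The crossover genes Msh4 and Msh5, whose products form a clamp around recombination intermediates, were dim and did not run in parallel. Msh4 read 5.81 and 5.07 in Nanos2+/-, 5.92 and 6.05 in Nanos2-/-, and 6.42 and 5.81 in Nanos2-/-_Tg+. Both Nanos2-/- arrays lay above both Nanos2+/- arrays, and in Nanos2-/-_Tg+ the lower array met the higher Nanos2+/- array. The means were 0.55 (SE 0.304, interval -0.16 to 1.26) and 0.68 (SE 0.304, interval -0.03 to 1.39) above Nanos2+/-, with limma adjusted p-values of 0.668 and 0.452. Msh5 read 5.27 and 6.03, 5.77 and 5.94, and 5.74 and 5.43 on its brighter probe, with a difference of 0.20 for Nanos2-/- against Nanos2+/- (interval -0.44 to 0.84) and of -0.27 between Nanos2-/-_Tg+ and Nanos2-/- (interval -0.91 to 0.38). The second Msh5 probe gave 0.05 for both of these differences, and on it replicate 1 was above replicate 2 in each genotype (5.84 and 5.39, 5.97 and 5.36, 5.91 and 5.52).

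**Figure D3:**
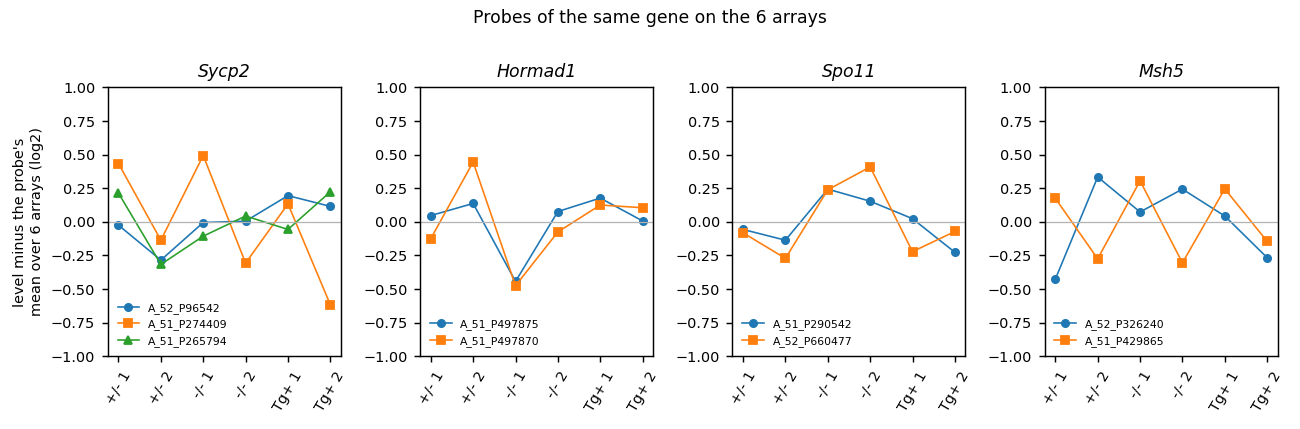
Level of each probe relative to its own mean over the 6 arrays (log2) for the 4 genes with more than 1 probe, with the arrays named by genotype and replicate on the horizontal axis. The probes of Hormad1 and those of Spo11 follow each other, with the Nanos2-/- arrays highest for both Spo11 probes, while the Sycp2 and Msh5 probes part.

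Across the 10 genes, each by its brightest probe, both Nanos2-/- arrays lay above both Nanos2+/- arrays for 4 genes (Sycp2, Sycp1, Spo11 and Msh4) and below them for 1 (Dmc1). Over all probes these shares were 14.3% and 21.7%. In Nanos2-/-_Tg+ against Nanos2+/- the arrays lay apart upwards for 4 genes (Sycp2, Sycp3, Sycp1 and Dmc1) and downwards for 0, where 18.6% and 20.3% of all probes did. Between Nanos2-/-_Tg+ and Nanos2-/- they lay apart upwards for 3 genes (Sycp2, Sycp3 and Dmc1) and downwards for 2 (Spo11 and Msh5), where 20% and 11.4% of all probes did. Dmc1 lay near background, which gives its order little meaning, and without it the counts were 4 and 0, 3 and 0, and 2 and 2 of the remaining 9 genes. The median difference of the 10 genes was 0.18, 0.20 and 0.12 in the 3 comparisons, beside -0.04, -0.01 and 0.03 over all probes tested. With all probes of a gene averaged, the medians were 0.08, 0.06 and 0.10. The first turned to -0.17 without Nanos2+/- replicate 1, when the median of all probes was -0.16, and the third to -0.05 without Nanos2-/-_Tg+ replicate 1. The second was 0.05 without that same array.

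The 10 genes did not follow a common course over the arrays. Nanos2+/- replicate 1 held the lowest value for 5 of the 10 genes and Nanos2-/-_Tg+ replicate 1 the highest for 5. The median of the genes, each relative to its own mean, was -0.33 on the first of these arrays and 0.27 on the second. The correlation of a gene with the mean of the others over the 6 arrays ranged from 0.12 for Spo11 to 0.84 for Sycp3. The genes outside the list whose brightest probe was most like the mean profile of the 9 members measured on all arrays were Abca9, Kat2b, Cdnf, Fibp and Miip, with Pearson correlations of 0.985 to 0.996 over the 6 arrays. They were the first 5 of 12969 genes ranked, so correlations of this size over 6 points are a description only. The level of Fibp moved over a narrow range (13.10 to 13.49) and that of Cdnf over a wider one (5.04 to 6.12). Abca9, the first of them, was dim, at 3.21 to 3.97. On both Nanos2+/- arrays and on Nanos2-/-_Tg+ replicate 2 it lay under the lowest signal well above background on that array. It thus passed the filter only through Nanos2-/-, and its place in the ranking has little meaning.

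The signals come from whole gonads, in which fewer germ cells and less RNA per germ cell cannot be told apart. Germ cell markers were measured beside the 10 genes, with 9 of 10 listed markers matched to a probe and all 9 tested, and none called. Their summed scaled signal was 146000 and 260000 in Nanos2+/-, 217000 and 246000 in Nanos2-/-, and 239000 and 250000 in Nanos2-/-_Tg+, and the sum was lowest on Nanos2+/- replicate 1, the array that was lowest for 5 of the 10 meiotic genes. The markers did not move together, since 5 of the 9, among them the brightest, Dppa5a and Dppa3, were lowest on that array, whereas Mael was highest there at 14.75 and Dnd1, at 13.54, was above all Nanos2-/- and Nanos2-/-_Tg+ arrays. Their part in the differences was not tested. The mean level of these markers differed by 0.13, 0.27 and 0.14 in the 3 comparisons, and values relative to it are shifted by these amounts for all genes alike. On that scale Sycp1 stood 1.00 and 0.81 above Nanos2+/- in Nanos2-/- and Nanos2-/-_Tg+, and the median difference of the 10 genes between Nanos2-/-_Tg+ and Nanos2+/- was -0.06 in place of 0.20. The scale is not a measure of germ cell number alone. Its markers include Dppa5a, Dppa3 and Sox2, which the paper reports as raised in gonads without NANOS2. They also include Dazl and Mael, which are counted with meiotic entry too.

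Markers of the other cells a dissected gonad could hold were read on the same arrays. The summed signal of 8 Sertoli cell markers ran from 41100 to 54700, lowest in Nanos2+/- replicate 1 and highest in Nanos2+/- replicate 2. That of the 5 fetal Leydig cell markers measured ran from 81200 to 106000, and that of the 6 blood markers from 142000 to 213000, both without an order by genotype shared with Sycp1. Of 6 listed markers of ovarian somatic cells, the defining genes Foxl2 and Irx3 were not well above background on any array, and the sum of all 6 was 11300 and 18700 on the Nanos2+/- arrays, 18600 and 20300 on the Nanos2-/- arrays and 24500 and 21700 on the Nanos2-/-_Tg+ arrays. This sum was carried mainly by Rspo1, which read 13.12 and 13.92, 13.99 and 14.15, and 14.42 and 14.24, whereas Fst read 5.85 and 5.33 in Nanos2-/-_Tg+, both under the lower Nanos2+/- array at 6.48. The median difference of the 4 markers tested was -0.10 in Nanos2-/- and -0.12 in Nanos2-/-_Tg+ against Nanos2+/-. The part of these cells in the differences was not tested. Of 6 mesonephros markers Pax2 was not well above background on any array, while the other 5 were tested. The sum of all 6 ran from 843 to 1430 over the arrays. The median difference of the 5 tested was 0.36 between Nanos2-/- and Nanos2+/-. It was -0.11 between Nanos2-/-_Tg+ and Nanos2+/-, and 0.06 between Nanos2-/-_Tg+ and Nanos2-/-. The female-specific transcript Xist was not well above background on any array. No probe of any of these lists was called.

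**Figure D4:**
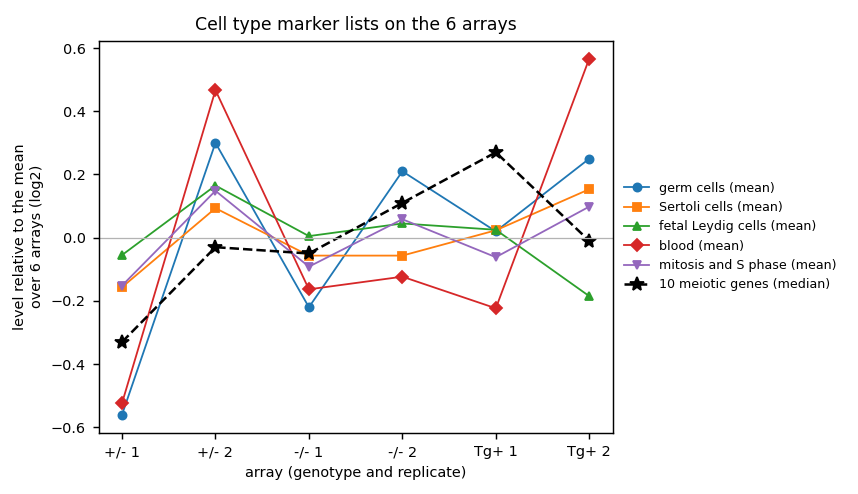
Mean level of the cell type marker lists on each array relative to the mean of that list over the 6 arrays (log2, coloured lines), with the median of the 10 meiotic genes treated the same way (black stars, dashed line). Nanos2+/- replicate 1 is the lowest array for germ cell markers and for the 10 genes (-0.33), whereas Nanos2-/-_Tg+ replicate 1 is the highest for the 10 genes (0.27) but not for germ cell markers.

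Other genes of the same pathway gave a setting for these values. Of 52 further genes of meiotic entry, cohesin, synapsis, strand exchange and crossover formation, 29 had a probe matched by accession. The others may be on the array without such a match. Of the 29, 27 were tested, none of them in the list of double strand break factors. None was called in any comparison. Before adjustment, with a limma p under 0.05, 2 stood above and 2 below Nanos2+/- in Nanos2-/-, 4 above and 2 below in Nanos2-/-_Tg+, and 1 above and 0 below Nanos2-/- in Nanos2-/-_Tg+. Among all probes, 9.08%, 11.6% and 2.74% had such a p in either direction. Terb1 was the 1 above Nanos2-/- and among the 4 above Nanos2+/-, and it passed the filter only through Nanos2-/-_Tg+. The median differences of the 27 genes were 0.02, 0.03 and 0.08. Each difference is that of the gene's brightest tested probe. Of the genes named below, Rec8, Tex12 and Taf7l have 2 matched probes each, and their other probe is not described.

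Within that list Stra8 had the largest difference from Nanos2+/- in both other genotypes. Stra8, the retinoic acid target that licenses meiotic entry, read 10.19 and 11.48 in Nanos2+/-, 12.46 and 13.44 in Nanos2-/-, and 14.48 and 13.04 in Nanos2-/-_Tg+, which put Nanos2-/- 2.11 and Nanos2-/-_Tg+ 2.93 above Nanos2+/- (limma adjusted p of 0.33 and 0.138). Both Nanos2+/- arrays lay under the other 4, as they did for Sycp1. Taf7l, a germ cell transcription factor subunit, stood 1.08 and 1.38 above Nanos2+/- (limma adjusted p of 0.363 and 0.179), also without overlap.

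The axis and synapsis genes of the list went both ways. Rec8, the meiosis-specific kleisin subunit of cohesin, read 11.09 and 11.45, 11.23 and 12.21, and 12.41 and 12.30, with a difference of 1.09 between Nanos2-/-_Tg+ and Nanos2+/- (limma adjusted p = 0.251). Stag3, another meiotic cohesin subunit, read 12.16 and 12.22, 11.22 and 11.96, and 11.24 and 11.21, with differences of -0.60 and -0.96 from Nanos2+/- (limma adjusted p of 0.55 and 0.21). Tex12, a central element partner of SYCE2, read 11.43 and 11.39, 10.44 and 10.64, and 10.98 and 10.69, and its difference was -0.87 in Nanos2-/- and -0.57 in Nanos2-/-_Tg+ (limma adjusted p of 0.251 and 0.312). Each of the Nanos2+/- arrays was above the other 4 for both Stag3 and Tex12, the opposite of Sycp1. Terb1, which ties telomeres to the nuclear envelope, read 5.02 and 5.18 in Nanos2-/-_Tg+, the genotype through which it passed the filter, and 3.14 and 4.57 in Nanos2-/-, the first of these not well above background. Neither Nanos2+/- array read it well above background, so that its difference is given against a bound. For each Nanos2+/- array the bound was the higher of the probe's own reading and the lowest clear signal of that array. Against it Terb1 was at least 2.36-fold higher in Nanos2-/-_Tg+, and this bounded difference was not tested. The limma adjusted p of 0.246 belongs to the difference without the bound, which uses Nanos2+/- readings not well above background. Mael, a germ cell piRNA factor counted with meiotic entry and with the germ cell markers, differed by -0.48, -0.09 and 0.39.

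**Figure D5:**
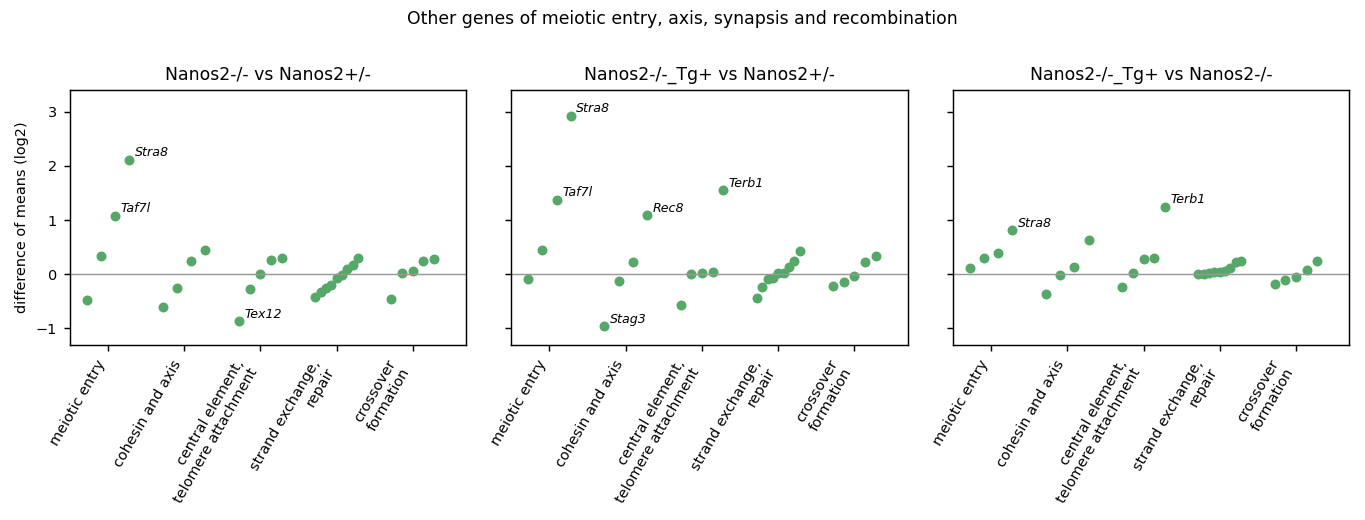
Difference of genotype means (log2) of the 27 further pathway genes tested, 1 point per gene, ordered by size within each role on the horizontal axis, in the 3 comparisons. Genes at or beyond 0.8 in either direction are named; Stra8 is the highest point against Nanos2+/- (2.11 and 2.93), and Stag3 and Tex12 lie below 0 in both comparisons with Nanos2+/-; Terb1 was not well above background in Nanos2+/-.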

How the data were processed

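Total RNA of E14.5 male gonads had been labelled with Cy3 and hybridized to Agilent whole mouse genome arrays, 2 per genotype, which the labels assign. The deposited scanner tables hold the intensity of each of 45018 spots after background subtraction by the authors' Feature Extraction software, version 9.5 per the submitters' processing notes. The deposited values of the series hold the same intensity, within 0.497%. No spot was saturated. Controls (1639 spots) and 54 to 82 outlier spots per array were left out. Each array was scaled to a common 50th percentile, with factors of 0.878 to 1.28, raised to at least 5, turned into log2 values and averaged over spots of 1 probe. Between 64.1 and 66.7% of probes were well above background, and the number of arrays limits the precision.

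Probes with a signal well above background in both replicates of some genotype (26712, for 12983 genes) were fitted with limma 3.58.1 (R 4.3.3, with version 1.17.8 of the package data.table) over all 6 arrays, with 4.55 prior degrees of freedom. Benjamini-Hochberg adjustment ran over all of them. The t-test, which the paper names with the 2-fold limit in its results, was run here with equal variances. The fit was tested on simulated data. A gene was represented by its probe of highest mean signal. Named are all 10 genes, Nanos2, the 5 further pathway genes with the largest difference in each comparison, the 5 genes most like the members' profile, and markers not well above background on any array. The members and lists were chosen from general knowledge with earlier results of these data known. Gene names came from RefSeq accessions. No Spo11 promoter window was used here. Other settings tried were quantile normalization, the 75th percentile, normexp (offset 50) on median signals, other floors and filters, and outlier spots kept. Further ones were the deposited series values, all probes of a gene averaged and a fit of only the arrays compared. A replicate block, the t-test and each array left out were tried too. Values relative to germ cell markers were an alternative chosen after seeing the data. Figures were drawn with matplotlib 3.10.9 and pandas 2.3.3 in Python 3.11.15.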

Additional observations from a re-analysis of the deposited data

How the results depend on the processing

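With 2 arrays per genotype, the replicate spread decides what these values can show. No member probe was called under any other setting that kept all 6 arrays. Sycp1 stood above Nanos2+/- under every alternative, by 0.80 to 1.85 in Nanos2-/- and by 0.75 to 1.80 in Nanos2-/-_Tg+, lowest without Nanos2+/- replicate 1 and highest under normexp, with limma adjusted p-values no lower than 0.0974 and 0.0875. The replicate numbers share no stated origin, and the differences between replicates correlated at 0.259 to 0.355 between genotypes. With the replicate block in the fit, 0 member probes were called, the limma adjusted p of Sycp1 was 0.125 and 0.0875, and the probes called over the whole array numbered 18, 145 and 4 in place of 18, 28 and 5.

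Under normexp the median of all probes itself stood 0.56 (Nanos2-/-) and 0.52 (Nanos2-/-_Tg+) above Nanos2+/-, and the median of the 10 genes was 0.47 and 0.53, close to this shift, with Sycp1 at 1.85 and 1.80. There Smc1b turned to 0.37 and 0.46, Hormad1 and Msh5 in Nanos2-/- to 0.45 and -0.08, and Spo11 in Nanos2-/-_Tg+ to 0.29. In Nanos2-/-_Tg+ against Nanos2+/-, quantile normalization gave -0.01 for Hormad1 and 0.01 for Spo11, and the mean of a gene's probes gave -0.02 for Hormad1 and 0.01 for Spo11 and Msh5, with -0.02 for Sycp2 between Nanos2-/-_Tg+ and Nanos2-/-. A floor of 20 put Dmc1 at 0 between Nanos2-/- and Nanos2+/-. The t-test with the 2-fold limit passed 2 further pathway genes (Rec8 and Terb1) in Nanos2-/-_Tg+ against Nanos2+/-. Of these, Terb1 was not well above background in Nanos2+/- and was tested only through the genotype in which it is high. Relative to germ cell markers, an alternative chosen after seeing the data that lowers the differences of all genes alike by 0.13, 0.27 and 0.14, the median of the 10 genes in Nanos2-/-_Tg+ against Nanos2+/- was -0.06, Syce2 differed by -0.11, -0.17 and -0.06 in the 3 comparisons, Hormad1 by -0.26 in the second, and Smc1b and Msh4 by -0.03 and -0.01 in the third. The last set of turns follows from that shift, and the cause of the others was not tested.

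With each array left out in turn, the median of the 10 genes ranged from -0.17 to 0.26 in Nanos2-/- against Nanos2+/-, from 0.05 to 0.34 in Nanos2-/-_Tg+ against Nanos2+/- and from -0.05 to 0.28 in Nanos2-/-_Tg+ against Nanos2-/-, and the member probes called from 0 to 1 in both comparisons of Nanos2-/-_Tg+, the 1 being Dmc1 without Nanos2-/-_Tg+ replicate 2. In Nanos2-/- against Nanos2+/-, Syce2 ranged from -0.25 to 0.27, Sycp3 from -0.16 to 0.56, Msh5 from -0.18 to 0.58 and Smc1b from -1.31 to 0.39. In Nanos2-/-_Tg+ against Nanos2+/-, Syce2 ranged from -0.16 to 0.36, Hormad1 from -0.08 to 0.09, Spo11 from -0.13 to 0.12, Smc1b from -1.20 to 0.50 and Msh5 from -0.44 to 0.31. In Nanos2-/-_Tg+ against Nanos2-/-, Smc1b ranged from -0.32 to 0.54, Sycp1 from -0.16 to 0.06 and Msh4 from -0.18 to 0.43.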

Other observations

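Pou5f1, a pluripotency gene of fetal germ cells that was singled out after its values were seen, separated the replicate numbers rather than the genotypes. It read 10.62 and 12.43 in Nanos2+/-, 10.53 and 12.39 in Nanos2-/-, and 10.78 and 12.61 in Nanos2-/-_Tg+, so that replicate 2 was above replicate 1 by a like amount in each genotype. Sycp3, an axis gene, was above in replicate 2 of Nanos2+/- and Nanos2-/- and below in replicate 2 of Nanos2-/-_Tg+, and Sycp2 probe A_51_P274409 and the second Msh5 probe were below in replicate 2 of all 3 genotypes. What same-numbered replicates have in common is not given in the sources used here.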
